A study of Drosophila melanogaster with 24 samples.

Results

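Of 16637 FlyBase transcript identifiers measured on the arrays, 48 were both abundant and steady between late larva and prepupa in each of 4 Drosophila melanogaster strains. They were selected on measured values. The array intensities were taken to log2 and quantile normalized, a step that gives every array the same distribution of values, and the 3 arrays of each strain and stage were averaged. A transcript was kept if its mean over the 8 group means lay in the top 5% of all transcripts (832 transcripts, at or above 12.98) and if its prepupal mean differed from its larval mean by at most 0.15 log2 units in every strain. A difference of 0.15 is a 1.11-fold change. Level and stage change were therefore used for the selection, and every value or count given for them is a description. Differences between strains, averaged over both stages, were not used.

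Total RNA of whole animals was hybridised to single-colour (cy3) arrays, with 3 biological replicates in each of 8 groups. The groups were late larvae, collected near the end of the last larval instar, and white prepupae of the strains Oregon-R, Canton-S, Samarkand and Zimbabwe-109. The larval groups were labelled 18BPF, a number without a stated unit, and the prepupal groups PF. The labels name no other genotype or treatment. The food held 0.05% bromophenol blue, a dye, the rearing temperature was 25 °C, and each replicate pooled 60 to 80 animals of unstated sex. RNA of each strain was extracted on its own, so strain and extraction cannot be told apart, and in whole animals fewer cells of a type and less RNA per cell cannot be told apart.

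In this interval a pulse of the steroid hormone ecdysone ends larval life. Glue proteins are made and released, feeding stops, the larval cuticle is turned into the puparium, and larval tissues begin to be broken down while adult tissues grow. Genes that most cells use throughout, such as those for ribosomes, cytoskeleton, energy supply and protein turnover, are usually taken as the background against which such changes are read.

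The deposited intensities were not on a common scale, since the array medians ran from 1936 to 3289 and the highest value on an array from 42254 to 57473. On the quantile normalized scale every one of the 12 larval arrays deviated towards the larval side of the stage change seen in the other strains, and every one of the 12 prepupal arrays towards the prepupal side. Of the Zimbabwe-109 arrays, larval replicate 4 and prepupal replicate 2 had been found to stand apart in earlier work on these values. Their slopes on the stage change of the other strains were -0.29 and 0.27, within the range of the remaining arrays of each stage, and a count that moves without both is given with its value. Canton-S stood apart in its distribution: before scaling, the interquartile range of its late larval and prepupal arrays was 1.56 ± 0.08 log2 units (SD, n = 6), against 1.23 to 1.24 in the other strains.

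Only 1 of the 48 transcripts could be given a gene name. The gene table used here held 44 of the 16637 identifiers, 16 of them with a single gene, and among the 832 abundant transcripts these were Uba1, LanA, sle and rdx. LanA met the rule for steadiness as well. The other 47 members are given by their identifiers, with no statement of what they encode. For the same reason the 16 lists of genes and tissue markers drawn up for this work could not be counted: 2 of their genes, alpha-Spec and Uba1, had a named transcript, and neither was a member.

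LanA (FBtr0077014) encodes a laminin alpha chain, a large subunit of the laminin trimers of basement membranes, the sheets of matrix that surround fly tissues. Its mean level was 13.18, rank 560 among all transcripts, and its deposited intensity ran from 7073 to 13283. In Oregon-R the late larval arrays read 13.04, 12.97 and 13.04 and the prepupal arrays 13.08, 12.98 and 13.16. The lowest LanA values of all arrays were among these. The Canton-S arrays read 13.27, 13.25 and 13.24 in larvae and 13.21, 13.29 and 13.18 in prepupae. Samarkand gave 13.27, 13.19 and 13.21 in larvae and 13.19, 13.25 and 13.29 in prepupae. Zimbabwe-109 gave 13.26, 13.13 and 13.33 in larvae and 13.17, 13.09 and 13.14 in prepupae. The ranges of Canton-S and Samarkand lay wholly above that of Oregon-R, and that of Zimbabwe-109 overlapped it. As selected, LanA differed little between stages, the change being 0.05 for Oregon-R, -0.03 for Canton-S, 0.02 for Samarkand and -0.11 for Zimbabwe-109, with a 95% interval of 0.115 to each side.

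LanA differed between strains in the limma F test (adjusted p = 0.000393). Averaged over both stages Canton-S exceeded Oregon-R by 0.19 ± 0.04 log2 units (SE), a 1.14-fold difference (limma, adjusted p = 0.000213). Samarkand exceeded Oregon-R by 0.19 ± 0.04 (limma, adjusted p = 0.000735) and Zimbabwe-109 exceeded it by 0.14 ± 0.04 (limma, adjusted p = 0.0068). The 3 pairs without Oregon-R did not pass the 0.05 threshold, with adjusted p from 0.23 to 0.91 in limma. The size of the Canton-S difference depended on the scaling, and was 0.76 when arrays were only centred on their medians and 0.58 without scaling. Under those scalings LanA no longer met the limit for steadiness.

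**Figure D1:**
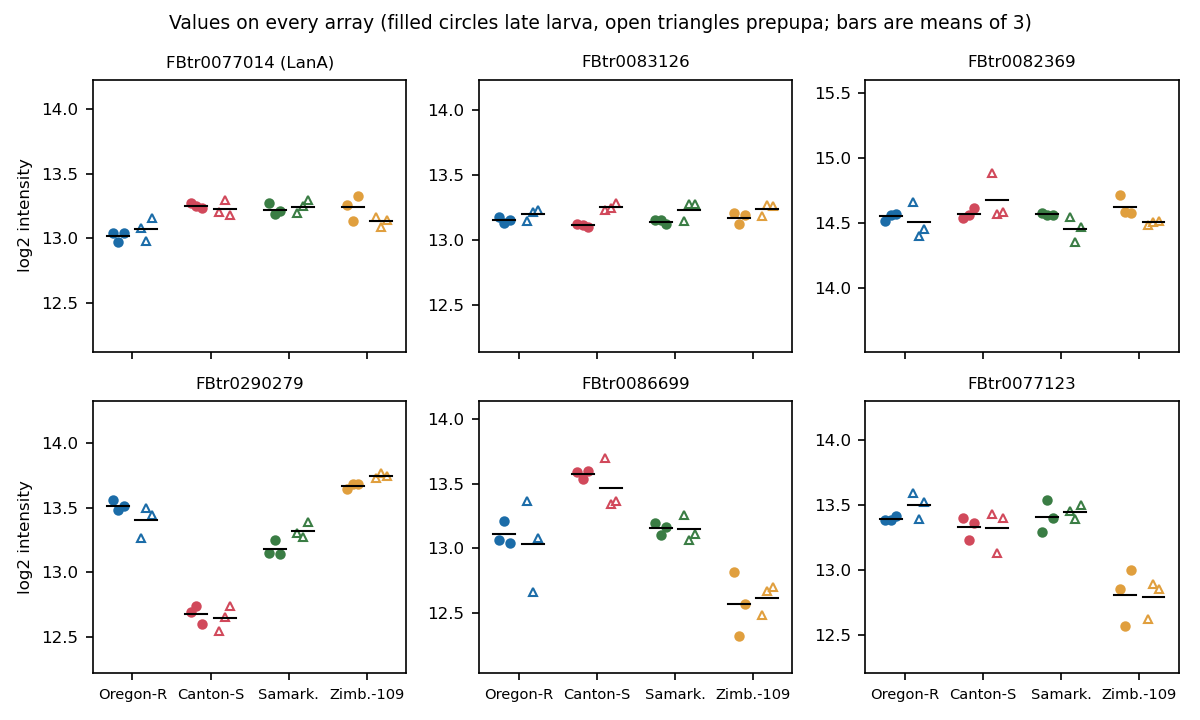
Log2 intensity after quantile normalization on every array for 6 of the transcripts, by strain, with late larvae as filled circles, prepupae as open triangles and group means of 3 arrays as bars. LanA is lowest in Oregon-R, FBtr0290279 peaks in Zimbabwe-109 and has its lowest values in Canton-S, and FBtr0086699 and FBtr0077123 are lowest in Zimbabwe-109, while FBtr0083126 and FBtr0082369 show little separation of the strains.

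The 48 transcripts covered much of the abundant range but not its top. Their mean levels ran from 13.00 to 14.56 with a median of 13.33, which was also the median of the 784 other abundant transcripts. The median of all transcripts was 11.35 and the highest level of any was 15.39. The best rank of a member was 35, and 11 members lay among the brightest 167 transcripts, the top 1%. On the deposited scale the members stood 3.01 to 8.73 times above the array median, with a median of 3.69 times. Abundance held from array to array: 45 of the 48 were in the top 10% of every array, the exceptions being FBtr0077123, FBtr0086699 and FBtr0290279. In the top 5% of every array were 28 members (58.3%), compared with 229 of the 784 other abundant transcripts (29.2%). This contrast is a description, since the rule kept transcripts whose stage means lay close and left out the others.

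The brightest member was FBtr0082369, at 14.56. Its larval and prepupal values were 14.52, 14.56, 14.57 and 14.66, 14.40, 14.46 in Oregon-R, and 14.54, 14.56, 14.61 and 14.88, 14.57, 14.58 in Canton-S. Samarkand gave 14.57, 14.56, 14.56 and 14.54, 14.35, 14.47, and Zimbabwe-109 gave 14.72, 14.58, 14.57 and 14.49, 14.51, 14.52. All 4 strains overlapped, and a difference between strains was not detected (limma F test, adjusted p = 0.203). The next brightest, FBtr0071361, had a mean level of 14.22 and a larger spread within groups (pooled SD 0.158), and its strains differed (limma F test, adjusted p = 0.0204). The dimmest members, FBtr0087059 and FBtr0084460, both had a level of 13.00 and also differed between strains (limma F test, adjusted p = 1.77e-06 and 0.000206). FBtr0087059 averaged 13.18 in Oregon-R and 13.17 in Zimbabwe-109, and 12.84 in Canton-S and 12.82 in Samarkand. In Canton-S and Samarkand it thus lay below the cut of 12.98, which applied to the mean over all groups. FBtr0084460 lay below that cut in Canton-S (12.96) and Zimbabwe-109 (12.88).

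The limit on the stage change removed most abundant transcripts. Of the 832, 400 were within the limit in no strain, 214 in 1, 93 in 2, 77 in 3 and 48 in all 4. Taken strain by strain, 323 abundant transcripts (38.8%) were within it in Oregon-R and 200 (24.0%) in Zimbabwe-109. The limit held for 154 (18.5%) in Canton-S and for 146 (17.5%) in Samarkand. Of the 77 that missed it in a single strain, that strain was Canton-S for 31, Samarkand for 17, Zimbabwe-109 for 15 and Oregon-R for 14. Oregon-R thus had the widest choice of steady transcripts, and Canton-S most often removed a transcript that the other strains would have kept.

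Within the limit, the members moved in no shared direction from 0. The median stage change of the 48, prepupa minus larva, was -0.05 in Oregon-R, where 34 members were below 0 and 14 above. It was 0.04 in Canton-S, where 29 were above 0 and 19 below. In Samarkand it was -0.02, with 27 below 0, and in Zimbabwe-109 -0.02, with 29 below 0. Only 9 members had the same sign in all 4 strains, 3 upward and 6 downward. In every strain the members' median lay below that of all transcripts, which was 0.03, 0.09, 0.08 and 0.06 in the same order.

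**Figure D2:**
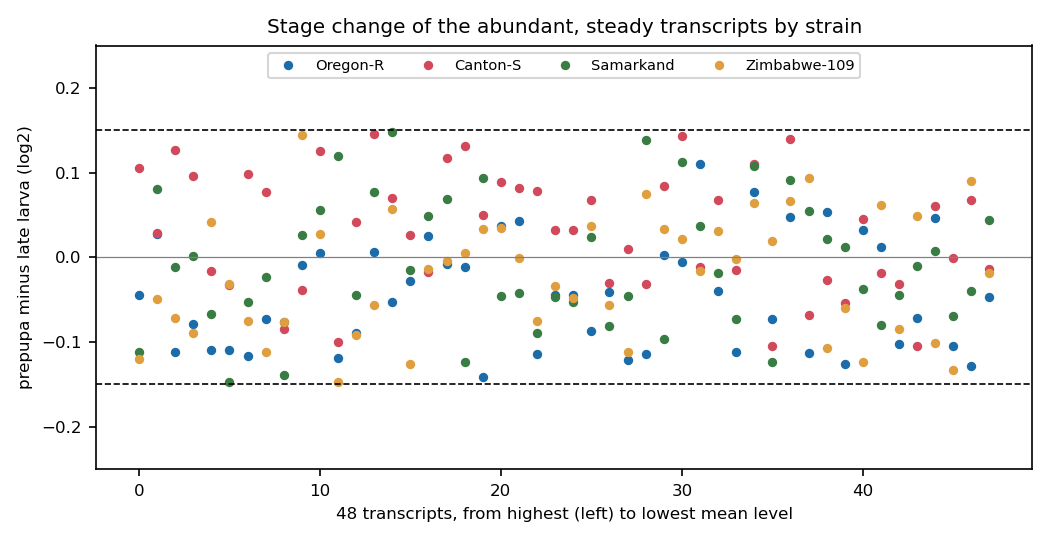
Prepupal minus late larval mean (log2) of the 48 transcripts in each strain, ordered from the highest to the lowest mean level, with dashed lines at the limit of 0.15 used to select them. The points of a transcript lie on both sides of 0 for all but 9 transcripts.

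The 3 arrays per group set how narrowly a single stage change was known. Its 95% interval had a median reach of 0.141 to each side over the members, from 0.0851 to 0.304, close to the limit itself. All 4 intervals lay within 0.15 in only 2 members, FBtr0075704 and FBtr0100443, and within 0.30 in 36. The rule capped the stage change, so the limma counts for it that follow are descriptions and not tests of the members. Averaged over the 4 strains, the stage change passed the limma threshold in 5 members (10.4%) and in 71.4% of all transcripts. The 5, named here because their values were seen, were FBtr0078965 and FBtr0083126, both at 0.09, FBtr0088412 at -0.09, FBtr0088414 at -0.08 and FBtr0089243 at -0.07. The test for a stage change that differs between strains, which the selection also limited, passed in 0 members and in 23.6% of all transcripts after adjustment. At an unadjusted limma p under 0.05 it passed in 1 of the 48 and in 33.7% of all transcripts.

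At the edge of the limit, FBtr0079932 was kept with a change of 0.148 in Samarkand and FBtr0088414 with -0.148 in Samarkand. FBtr0081639, with -0.152 in Samarkand, and FBtr0089597, with 0.154 in Zimbabwe-109, were left out. The excess over the limit was smaller than the reach of any interval above. Leaving out 1 array at a time gave 39 to 55 members, 38 to 48 of them among the original 48, and 14 members met the rule in all 24 such repeats.

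Steadiness of these transcripts held relative to a quantile normalized distribution and was lost for most of them after median centring and without scaling. When each array was only centred on its median, 5 of the 48 still met the rule, namely FBtr0078965, FBtr0083126, FBtr0083312, FBtr0087059 and FBtr0089623, and 72 transcripts met it in all. Without any scaling 2 of the 48 did, FBtr0078965 and FBtr0083126, and 25 in all. All 48 stayed in the top 5% by mean level under both, so it was the limit on the stage change that they missed. With a normexp background correction before quantile normalization 39 of the 48 met the rule, out of 41.

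The direction in which the members left the limit was downward. After median centring their median stage change was -0.07 for Oregon-R, -0.22 for Canton-S, -0.18 for Samarkand and -0.12 for Zimbabwe-109, while that of all transcripts was 0.03, 0.09, 0.07 and 0.05. Without scaling the members had -0.05, -0.08, -0.26 and -0.23 in the same order of strains, against 0.05, 0.23, -0.01 and -0.06 for all transcripts. Whether the members were level or fell at the transition therefore differed with the scaling in Canton-S, Samarkand and Zimbabwe-109, whereas the median change in Oregon-R was between -0.07 and -0.05 on all 4 scales.

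**Figure D3:**
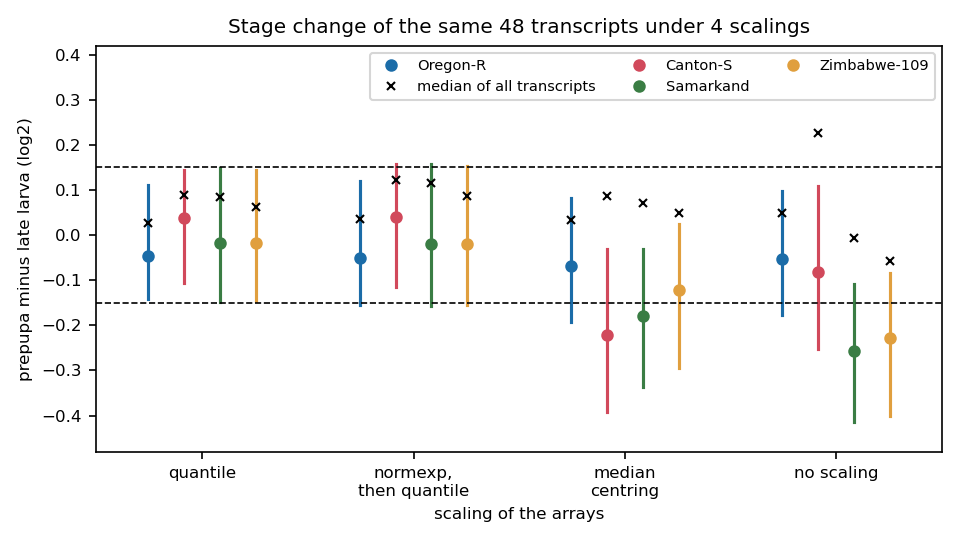
Stage change (log2) of the same 48 transcripts under 4 scalings of the arrays, as the median (point) and the range from lowest to highest (line) in each strain, with the median of all transcripts as a cross. The members lie within the dashed limits of 0.15 by selection under quantile normalization and mostly below them after median centring in Canton-S, at a median of -0.22.

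Steady transcripts were a smaller share of abundant transcripts than of others. Over all levels 2988 of 16637 (18.0%) were within the limit in all 4 strains, against 5.77% of the top 5% and 18.6% of the 15805 transcripts below it. In bins of 5% by level the share was 35.7% in the dimmest and fell to 20.4% in bin 6, 16.3% in bin 11, 12.5% in bin 16 and 8.41% in bin 19. With the normexp correction the gradient was nearly gone: the dimmest bin held 48.4% and the next 13.1%, and every later bin lay between 4.09% and 8.29%, with 4.93% in the brightest.

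**Figure D4:**
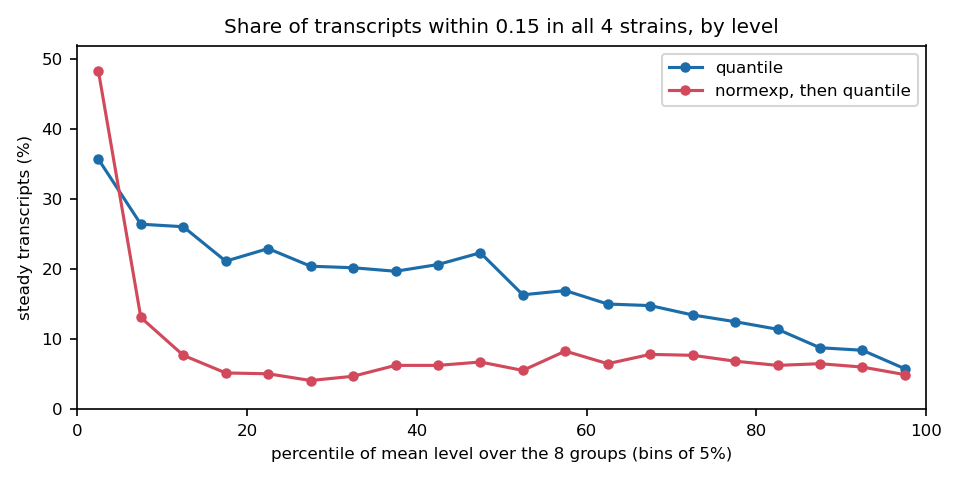
Share of transcripts (%) whose stage change was within 0.15 log2 in all 4 strains, in 20 bins of mean level, with quantile normalization alone and with a normexp background correction before it. The brightest bin, which holds the 48 transcripts, has 5.77% and 4.93%, and the gradient across the middle bins is present only without the correction.

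Most members differed between strains. Averaged over both stages, 34 of the 48 (70.8%) passed the limma F test for a strain difference, compared with 85% of all transcripts and 637 (81.2%) of the other abundant ones. The shortfall against all transcripts was not seen on the scales without quantile normalization: 47 of the 48 passed after median centring, against 86.5% of all, and 41 without scaling, against 66.5%. Without Canton-S the count was 20, against 60.5% of all transcripts. Within late larvae 17 (35.4%) passed, against 77.1% of all, and within prepupae 23 (47.9%), against 67.9% of all. These single-stage counts share arrays with the stage change used for the selection and are descriptions. Of the 48, 11 passed in both stages, 12 in prepupae alone, 6 in larvae alone and 19 in neither. This split was not counted over all transcripts. It cannot tell whether a strain difference changed between stages, and neither can the interaction given above, which the selection limited.

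On the quantile scale the strain differences were small in most members. The range of the 4 strain means had a median of 0.184 log2 units, from 0.0305 to 1.04, compared with 0.336 in the other abundant transcripts and 0.358 in all. After median centring the order turned, with a median range of 0.666 in the members, 0.602 in the other abundant transcripts and 0.409 in all, and without scaling the medians were 0.464, 0.463 and 0.473. On the quantile scale a range of 0.25 or more was found in 11 members (22.9%), against 67.1% of the other abundant transcripts and 71.5% of all. A range of 0.5 or more was found in 4 (8.33%), against 30.6% of the other abundant transcripts and 27.9% of all.

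**Figure D5:**
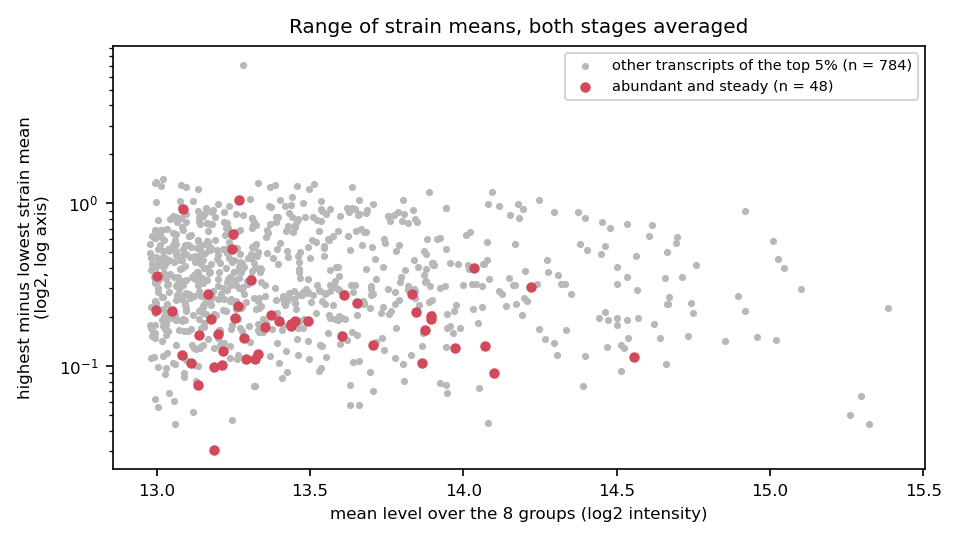
Range of the 4 strain means (log2 units, log axis), averaged over both stages, against mean level (log2 intensity) for the 48 transcripts and the 784 other transcripts of the top 5%. The members' ranges run from 0.0305 to 1.04 and 4 of the points are at 0.5 or above.

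Among the members, as among all transcripts, the 3 pairs with Canton-S passed most often. Canton-S and Oregon-R differed in 23 members, 15 higher in Canton-S, against a background of 68.6% of all transcripts. Canton-S and Zimbabwe-109 differed in 22, 15 of them higher in Canton-S (70.3% of all), and Canton-S and Samarkand in 19, 14 of them higher in Canton-S (62.6% of all). Samarkand and Zimbabwe-109 differed in 17, 10 of them higher in Zimbabwe-109 (43.9% of all). Oregon-R and Zimbabwe-109 differed in 12, 8 of them higher in Oregon-R (41.2% of all), though in 7 without the pair of Zimbabwe-109 arrays named above (35.4% of all), and Oregon-R and Samarkand in 9, 7 of them higher in Oregon-R (36.3% of all). On this scale every pair's share among the 48 was below its background. The directions were not counted over all transcripts. After median centring the 3 pairs with Canton-S instead passed in 47 or 48 members, above the 70.8% to 74.9% of all transcripts. At least 1 pair differed in 37 members, no pair in 11, and all 6 pairs in 1, FBtr0290279. How many of all transcripts differed in any, no or all pairs was not counted.

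Among the 34 members with a strain difference, Canton-S was highest in 17, Zimbabwe-109 in 8, Oregon-R in 6 and Samarkand in 3. The lowest strain was Samarkand in 10, Zimbabwe-109 in 10, Canton-S in 8 and Oregon-R in 6. How often each strain was highest or lowest over all transcripts was not counted. The median deviation of Canton-S from the mean of the strains was small, 0.03 over the 48, against -0.01 over all transcripts. Its size depended on the scaling, and it was 0.04 with the normexp correction. After median centring the median deviation in Canton-S was 0.46, and without scaling 0.29. On the deposited scale the abundant transcripts stood about 2.47 log2 units above the array median in Canton-S larvae and 2.42 in its prepupae. In the other groups this was 1.91 to 1.97.

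The widest strain differences were those of FBtr0290279, FBtr0086699 and FBtr0077123. Each met the cut of 12.98 in its mean over all groups but lay below it in its lowest strain. In FBtr0290279 the Canton-S arrays read 12.70, 12.74 and 12.60 in larvae and 12.55, 12.66 and 12.74 in prepupae. The Samarkand arrays read 13.15, 13.25 and 13.15, then 13.30, 13.27 and 13.39. Canton-S lay below every array of the other strains. Oregon-R gave 13.56, 13.48 and 13.51 in larvae and 13.27, 13.50 and 13.44 in prepupae. Zimbabwe-109 gave 13.64, 13.68 and 13.68, then 13.73, 13.77 and 13.74. Zimbabwe-109 lay above every array of the other strains, and only Oregon-R and Samarkand overlapped. The strain means were 13.46, 12.66, 13.25 and 13.71 in the order Oregon-R, Canton-S, Samarkand and Zimbabwe-109 (limma F test, adjusted p = 4.62e-13). Zimbabwe-109 exceeded Canton-S by 1.04 ± 0.04 log2 units (SE), a 2.06-fold difference (limma, adjusted p = 1.64e-13). The difference was 0.58 after median centring and 0.77 without scaling, always with Zimbabwe-109 higher.

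FBtr0086699 was high in Canton-S and low in Zimbabwe-109. Its Canton-S values were 13.59, 13.53 and 13.60 in larvae and 13.69, 13.34 and 13.37 in prepupae, and its Zimbabwe-109 values 12.82, 12.32 and 12.57, then 12.49, 12.67 and 12.70. These strains did not overlap. Oregon-R gave 13.07, 13.21 and 13.04, then 13.36, 12.66 and 13.08, and Samarkand 13.20, 13.11 and 13.17, then 13.26, 13.07 and 13.11. Zimbabwe-109 was 0.93 ± 0.10 log2 units (SE) below Canton-S, a 1.90-fold difference (limma, adjusted p = 7.71e-08). The same difference was 1.48 after median centring and 1.29 without scaling. The Oregon-R prepupal array at 12.66 lay within the range of Zimbabwe-109, and FBtr0086699 had the second highest spread within groups of all members (pooled SD 0.180).

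FBtr0077123 was low in Zimbabwe-109 alone. The Zimbabwe-109 arrays read 12.86, 12.57 and 13.00 in larvae and 12.62, 12.89 and 12.85 in prepupae. Oregon-R ran from 13.38 to 13.59, Canton-S from 13.13 to 13.43 and Samarkand from 13.29 to 13.54, all above the highest Zimbabwe-109 array. Zimbabwe-109 was 0.65 ± 0.07 log2 units (SE) below Oregon-R (limma, adjusted p = 4e-07), 0.53 below Canton-S and 0.63 below Samarkand. The difference from Oregon-R was 0.59 both after median centring and without scaling. The remaining transcript past 0.5, FBtr0089559, was named after its values were seen. It too was lowest in Zimbabwe-109, with strain means of 13.31, 13.42, 13.36 and 12.89 in the order used above (limma F test, adjusted p = 1.38e-08).

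At the other end, FBtr0083126 was the member most alike in all strains. Its means were 13.17, 13.18, 13.19 and 13.20 and all 24 arrays lay between 13.10 and 13.28, with no strain difference detected (limma F test, adjusted p = 0.806). It was also among the 2 members that met the rule after median centring and without scaling, although it did not meet it with the normexp correction. FBtr0079951 followed, with a strain range of 0.0765 (limma F test, adjusted p = 0.454).

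Replicate arrays of the members lay close together. The pooled SD within groups had a median of 0.0807 over the 48, from 0.0351 to 0.191, compared with 0.117 in the other abundant transcripts and 0.103 in all. This is a description, since transcripts that vary more between replicates meet the limit less often. The lowest were FBtr0100443 (0.0351) and FBtr0075704 (0.0361), which were also the 2 with all intervals inside the limit, and the highest was FBtr0100884 (0.191).

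Some members were near copies of each other in value, so the 48 do not count as 48 separate measurements. Over the 24 arrays the root mean square difference between 2 members had a median of 0.405 log2 units across 1128 pairs. In 5 pairs, formed by 7 members, it was below 0.06. The closest were FBtr0075704 and FBtr0100443 at 0.0205, FBtr0087123 and FBtr0087124 at 0.0334, and FBtr0084082 and FBtr0084083 at 0.0439. FBtr0075703 differed by 0.0505 from FBtr0075704 and by 0.0550 from FBtr0100443. Consecutive identifiers occurred in 5 pairs in all, the others being FBtr0079951 with FBtr0079952 (0.152) and FBtr0079724 with FBtr0079725 (0.198). Whether such transcripts share probes is not given in the sources used here.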

How the data were processed

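The authors deposited array intensities on a linear scale, 1 value per transcript and array, for 24 arrays. RMA is named in the submitters' processing notes, with no version given in the sources used here, and whether a background had been subtracted is not given. Here the deposited intensity values were log2 transformed and quantile normalized over the 24 arrays with limma 3.58.1 in R 4.3.3. A limma model with 1 mean per strain and stage (16 residual degrees of freedom, empirical Bayes) was fitted to all 16637 transcripts, with two-sided tests, Benjamini-Hochberg adjustment over all of them and a threshold of 0.05. The scripts were tested on simulated data.

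The members, the lists and the tests were chosen with earlier results of these data known. Replicates are labelled biological, p-values measure the spread between these samples, and precision is limited by the number of arrays. Named were transcripts with a single gene, the 2 brightest and 2 dimmest members, the 3 widest and 2 narrowest in strain range, 2 on each side of the limit of 0.15, and the 2 highest and 2 lowest in spread. Gene names came from RefSeq's table of Release 6, used for names alone. Same-numbered larval and prepupal samples deviated together (r above 0.1) in 5 of 9 cases, from -0.63 to 0.42, so the numbers were not taken as pairs. Alternatives were the scaling, a normexp correction (offset 50), filters on dim transcripts, single-stage fits, a replicate block, other limits of the rule, and leaving out arrays or Canton-S.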

Additional observations from a re-analysis of the deposited data

How the results depend on the processing

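The members depended on the rule and the scaling. Their number was 17 in the top 2%, 118 in the top 10%, 14 with a limit of 0.1, 89 with a limit of 0.2, 88 without Canton-S and 25 without scaling; of the 48, the rule kept 5 after median centring, 2 without scaling, 17 in the top 2% and 14 with a limit of 0.1. Counts of the 48 with a strain difference moved with the scaling and with Canton-S, and are given with the share of all transcripts in parentheses. After median centring they were 47 in larvae (81.0%) and 46 in prepupae (69.8%), and for pairs 48 when Oregon-R was set against Canton-S (74.2%), 4 against Samarkand (30.9%) and 7 against Zimbabwe-109 (35.9%), 47 when Canton-S was set against Samarkand (70.8%) and 47 against Zimbabwe-109 (74.9%), and 11 between Samarkand and Zimbabwe-109 (38.6%). Without scaling larvae gave 27 (57.5%) and the pairs, in that order, 44 (55.6%), 1 (9.39%), 2 (8.43%), 31 (55.2%), 40 (56.2%) and 5 (11.6%). Without Canton-S the count was 20 over both stages (60.5%) and 10 in prepupae (38.1%), and a fit of prepupal arrays alone gave 13 (56.6%). Without the 2 Zimbabwe-109 arrays set apart in earlier work, Oregon-R and Zimbabwe-109 differed in 7 (35.4%). The cause of these moves was not tested. A replicate block as a fixed term gave 29 over both stages in place of 34, 16 in larvae and 21 in prepupae, and as a random block 34, 17 and 23; it moved no count by over 1.5 times. Leaving out 1 array at a time gave 31 to 37 over both stages, 13 to 21 in larvae and 19 to 26 in prepupae. The widest difference of FBtr0290279, FBtr0086699 and FBtr0077123 and that of LanA between Canton-S and Oregon-R kept direction and call under the alternatives run for them; the other named members were not repeated.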
